A study of Rattus norvegicus with 12 samples.

Results

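Pyruvate dehydrogenase is the mitochondrial enzyme complex that turns pyruvate, the product of glycolysis, into acetyl-CoA, and so sets how much glucose the heart muscle burns. Pyruvate dehydrogenase kinases phosphorylate its E1 component and switch it off, phosphatases switch it back on, and in starved or insulin-deficient heart and muscle the kinase Pdk4 is known to be induced while fatty acids take over as fuel. Ucp2 and Ucp3 are carriers of the inner mitochondrial membrane, named after the uncoupling protein Ucp1 of brown fat, and Ucp3 is known chiefly from skeletal muscle and heart, where fatty acids raise its mRNA. The genes described here are 3 of the kinases (Pdk4, Pdk2 and Pdk1), the E1 subunits Pdha1 and Pdhb, and the uncoupling proteins Ucp3 and Ucp2. They were chosen by symbol, as every array probe set whose only annotated gene was 1 of these 7, which gave 12 probe sets among the 31042 that were not controls and 7 genes among the 14217 with a symbol of their own. Pdk4, Pdk2, Pdk1, Pdha1 and Ucp3 had 2 probe sets each, and Pdhb and Ucp2 had 1. All 12 passed the filter on dim probe sets, which kept 18625.

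The study followed the heart muscle that survives outside an infarct, in male Sprague-Dawley rats with and without diabetes. Diabetic rats received 65 mg/kg streptozotocin, a toxin of the insulin-producing beta cells, in citrate buffer at an age of 8 weeks, and non-diabetic rats received the buffer alone. After 10 weeks the left anterior descending coronary artery was tied off without reperfusion, or a sham operation was made. Tissue came from the remote zone of the free wall of the left ventricle. The 12 groups were diabetic and non-diabetic hearts after the sham operation and on days 1, 7, 14, 28 and 56 after ligation. The labelled age was 18 weeks for the sham and day 1 rats, 19 weeks on day 7, 20 weeks on day 14 and 22 weeks on day 28. For day 56 it was 26 weeks for the diabetic and 22 weeks for the non-diabetic rats, although the protocol of both gives 56 days. How long the sham-operated rats lived after surgery is unknown, and the tissue label of the sham arrays speaks of an infarct.

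Each group had 1 array, made from the pooled RNA of 3 rats. Single time points therefore have no replicate, and the comparison of the conditions treats the 6 time points as 6 pairs of arrays. The spread behind its p-values is that of the diabetic minus non-diabetic difference over time points, not that between animals. The model moderates this spread with the variances of all probe sets, so its SE can be smaller than a probe set's own spread gives. The 6 pair differences had an SD of 1.26 and 1.83 (log2) on the 2 Pdk4 probe sets and of 0.70 and 0.94 on those of Ucp3. In bulk tissue, fewer cells of a type and less RNA per cell cannot be told apart. The arrays' median intensity lay between 28.8 and 34.7. Precision is limited by there being 12 arrays. The 4 day 1 and day 7 arrays had a beta-actin 3′ minus 5′ difference of 0.98 to 1.00 (log2), against 0.37 to 0.59 on the other 8, a measure of RNA quality. The same difference of GAPDH did not separate them, with 0.32 to 0.36 against 0.11 to 0.48.

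Of the 9 cardiomyocyte markers listed, 8 were on the array and all of these passed the filter, with a summed intensity of 35753 to 45666 in diabetic and 42168 to 46007 in non-diabetic hearts. Of the skeletal muscle markers, another tissue rich in Ucp3, 4 of 7 passed, and the fast-fibre genes Myh4, Actn3 and Atp2a1 did not. The summed intensity of all 7 was 2494 to 3852 in diabetic and 3101 to 5499 in non-diabetic hearts. Of the 4 brown adipocyte markers 1 passed, and Ucp1, Dio2 and Elovl3 did not. For macrophages, in which Ucp2 is known to be abundant, 9 of 10 markers passed, with sums of 2299 to 7827 in diabetic and 1032 to 8366 in non-diabetic hearts. limma called 0 markers of any of the 10 cell type lists for diabetes, where 0.376% of all probe sets tested were called. At an unadjusted p under 0.05 were 1 of the 8 cardiomyocyte, 2 of 5 endothelial, 2 of 4 lymphocyte, 2 of 3 atrial and 1 of 2 adipocyte markers, and 0 of the skeletal muscle, brown adipocyte, macrophage, neutrophil and fibroblast markers. The summed endothelial markers were 1791 to 2499 in diabetic and 1962 to 3079 in non-diabetic hearts, and the lymphocyte markers 157 to 328 and 171 to 389, both lower in the diabetic array of all 6 pairs. The cardiomyocyte sum was the higher in the diabetic array of 1 of 6 pairs. The atrial sum was 5995 to 8437 in diabetic and 2611 to 7545 in non-diabetic hearts, higher in the diabetic array of 5 of 6 pairs, and the adipocyte sum was 2752 to 5682 and 1946 to 4399, higher in 4 of 6. The part of these cell types in the diabetes differences was not tested.

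The 7 genes lie on 6 chromosomes in the RefSeq annotation of the rat build GRCr8. Ucp3 at chr1:164227910-164240893 and Ucp2 at chr1:164251373-164257742 are direct neighbours, with 10479 bases and 0 annotated genes between them. Pdk4 is at chr4:34558327-34568329, Pdk2 at chr10:80469388-80483988, Pdk1 at chr3:77113464-77144145, Pdha1 at chrX:38509158-38522986 and Pdhb at chr15:19182789-19188731. The 250 bases before the annotated start are shown for Pdk4 and Ucp3, the genes with the diabetes differences given next, and for Ucp2, the neighbour of Ucp3. They are RefSeq sequences of GRCr8 on the gene's own strand, Pdk4 from chr4:34568330-34568579 (minus strand), Ucp3 from chr1:164227660-164227909 (plus strand) and Ucp2 from chr1:164251123-164251372 (plus strand). Capitals mark AGGTCA, the half-site that nuclear receptors such as the PPARs bind, and TGTTTAC, a forkhead motif, each searched on both strands.
Pdk4: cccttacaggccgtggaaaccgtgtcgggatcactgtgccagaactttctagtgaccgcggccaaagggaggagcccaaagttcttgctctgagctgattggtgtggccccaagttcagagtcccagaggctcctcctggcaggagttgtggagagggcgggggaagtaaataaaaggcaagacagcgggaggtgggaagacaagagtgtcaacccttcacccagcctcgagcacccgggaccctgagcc
Ucp3: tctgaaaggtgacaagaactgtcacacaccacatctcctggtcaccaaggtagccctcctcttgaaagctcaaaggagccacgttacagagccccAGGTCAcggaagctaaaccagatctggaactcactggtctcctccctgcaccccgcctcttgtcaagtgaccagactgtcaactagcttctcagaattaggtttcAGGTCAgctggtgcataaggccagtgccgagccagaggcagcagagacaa
Ucp2: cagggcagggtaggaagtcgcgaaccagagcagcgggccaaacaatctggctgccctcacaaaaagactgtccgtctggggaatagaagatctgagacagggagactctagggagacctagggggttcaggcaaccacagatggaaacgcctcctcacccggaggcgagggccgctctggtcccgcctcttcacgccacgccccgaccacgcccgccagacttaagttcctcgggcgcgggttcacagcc
In these windows Ucp3 held AGGTCA 2 times, ending 150 and 45 bases before its start, and neither Pdk4 nor Ucp2 held AGGTCA or TGTTTAC. Of 33469 rat promoters of this length, 14.1% held AGGTCA and 3.21% held TGTTTAC. The direct repeat AGGTCANAGGTCA was in 0 of the 7 genes here and in 0.0508% of all. TGTTTAC was found in Pdhb among the 7, and CACGTG, an E-box, in Pdk2 and Pdhb, against 5.59% of all promoters. TATAAA, the TATA box, was in 0 of the 7 and in 12.9% of all promoters. A match describes letters only, and no match says that these letters are not in this window.

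Pdk4 was higher in diabetic than in non-diabetic hearts at all 6 time points on both of its probe sets. It is the kinase that keeps pyruvate dehydrogenase off when fat is burned. On its brighter probe set, 1378074_at, whose source is an expressed sequence tag, the sham hearts gave an intensity of 2937 when diabetic and 313 when non-diabetic. On day 1 the diabetic array read 2224 and the non-diabetic array 1501, and on day 7 they read 1425 and 629.6. On day 14 the diabetic array read 1642 and the non-diabetic array 138, on day 28 they read 4248 and 382, and on day 56 they read 3685 and 439. The diabetic array was thus the higher of every pair, yet the groups overlapped, because the non-diabetic day 1 array exceeded the diabetic day 7 array. The ratio of the intensities was 9.39 in sham hearts, 1.48 on day 1, 2.26 on day 7, 11.9 on day 14, 11.1 on day 28 and 8.40 on day 56. Over the 6 pairs Pdk4 rose by 2.46 ± 0.36 (log2, model SE, 95% interval 1.66 to 3.26) in diabetic relative to non-diabetic hearts, with an adjusted p of 0.0171. The call did not hold without the sham pair (2.32, adjusted p = 0.0655), the day 14 pair (2.27, adjusted p = 0.116) or the day 56 pair (2.35, adjusted p = 0.144).

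The second Pdk4 probe set, 1369150_at, taken from the reference mRNA, read 994 in diabetic and 85.0 in non-diabetic sham hearts. On day 1 it read 68.1 in the diabetic and 42.6 in the non-diabetic heart, and on day 7 it read 47.2 and 34.5. On day 14 the diabetic array gave 425 and the non-diabetic array 25.9, on day 28 they gave 1991 and 71.4, and on day 56 they gave 2040 and 101. Here the low values of the diabetic hearts were those of day 1 and day 7, which lay within the non-diabetic range of 25.9 to 101, while the other 4 diabetic arrays stood above it. The ratio was 11.7 in sham hearts, 1.60 on day 1, 1.37 on day 7, 16.4 on day 14, 27.9 on day 28 and 20.3 on day 56. The difference over the 6 pairs was 2.70 ± 0.51 (log2, SE, 95% interval 1.57 to 3.83) with an adjusted p of 0.0603, so 1 of the 2 Pdk4 probe sets passed.

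**Figure D1:**
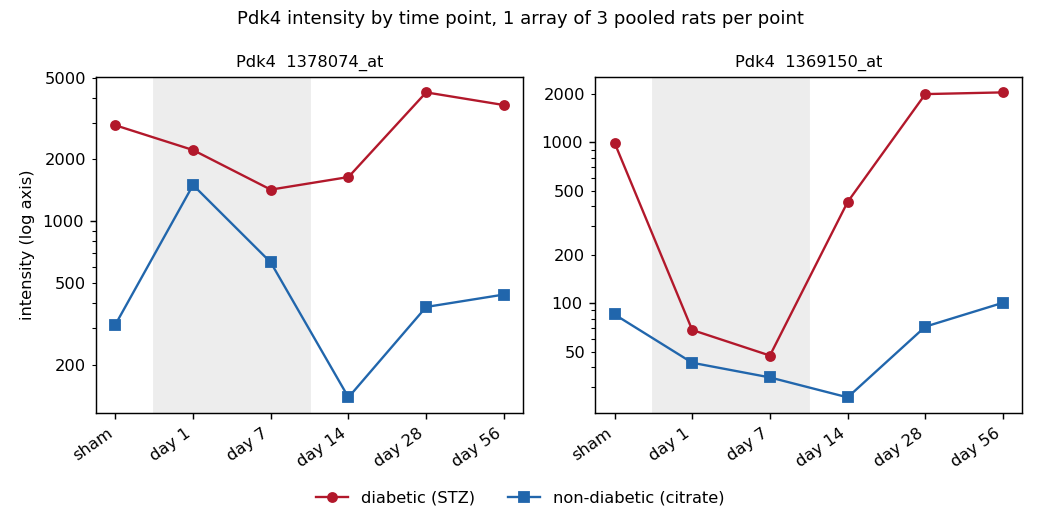
Intensity of the 2 Pdk4 probe sets (log axis, linear intensity as deposited) at each time point (categories, not to scale), in diabetic (circles) and non-diabetic (squares) hearts, 1 array of 3 pooled rats per point; grey marks day 1 and day 7. The diabetic array was the higher at all 6 time points on both probe sets, and the distance was smallest on days 1 and 7.

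The probe sets of Pdk4 gave mean diabetes differences of 2.46 and 2.70 (log2) but reported the days after ligation differently. The difference on 1369150_at minus that on 1378074_at was 0.15 in sham hearts, -0.041 on day 1, -0.84 on day 7, -0.032 on day 14, 1.10 on day 28 and 1.12 on day 56 (log2). It was above 0 at 3 of 6 time points and averaged 0.24 ± 0.75 (SD, n = 6), and an exact two-sided sign-flip test over the 6 time points gave p = 0.375, where the smallest possible p is 0.03125. With an offset of 64 the mean was -0.090. The test concerns the mean alone, in which differences of opposite sign cancel, so it cannot show that the probe sets are alike. The probe sets differed more in their courses within each condition. Relative to the diabetic sham array, 1378074_at stood at -0.40 on day 1 and -1.03 on day 7 in diabetic hearts, where 1369150_at stood at -3.59 and -4.00. In non-diabetic hearts 1378074_at stood 2.21 above sham on day 1 and 0.97 above on day 7, whereas 1369150_at stood at -0.79 on day 1 and was lower again on day 7. These are differences between single arrays, and the direction in non-diabetic hearts was opposite on the 2 probe sets on both days.

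On a given array, the log2 value of 1378074_at exceeded that of 1369150_at by 3.68 to 4.74 on the 4 arrays of day 1 and day 7 and by 0.85 to 2.19 on the other 8. The mean shift of 2.76 between these sets of arrays was at the 99.7th percentile of absolute shifts among 2792 genes with 2 probe sets past the filter, whose median was 0.32. Pdha1 had the second largest shift here, with 1.79 to 2.47 on the 4 arrays against 0.80 to 1.12 on the other 8. For Pdk1 the gap was 0.50 to 0.62 against -1.09 to 0.99, for Pdk2 1.48 to 1.63 against 1.52 to 2.27, and for Ucp3 0.063 to 0.25 against -0.36 to 0.35. The gap of Pdk4 thus moved with the days on which the 3′ to 5′ difference of beta-actin was high, and so did that of Pdha1. The 5′ probe set of hexokinase, a further control, read 0.059 to 3.19 on the same 4 arrays and 14.2 to 82.9 on the other 8. The part of these control differences in the low day 1 and day 7 values of 1369150_at was not tested, and positions of the probes within the Pdk4 transcript were not used here.

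**Figure D2:**
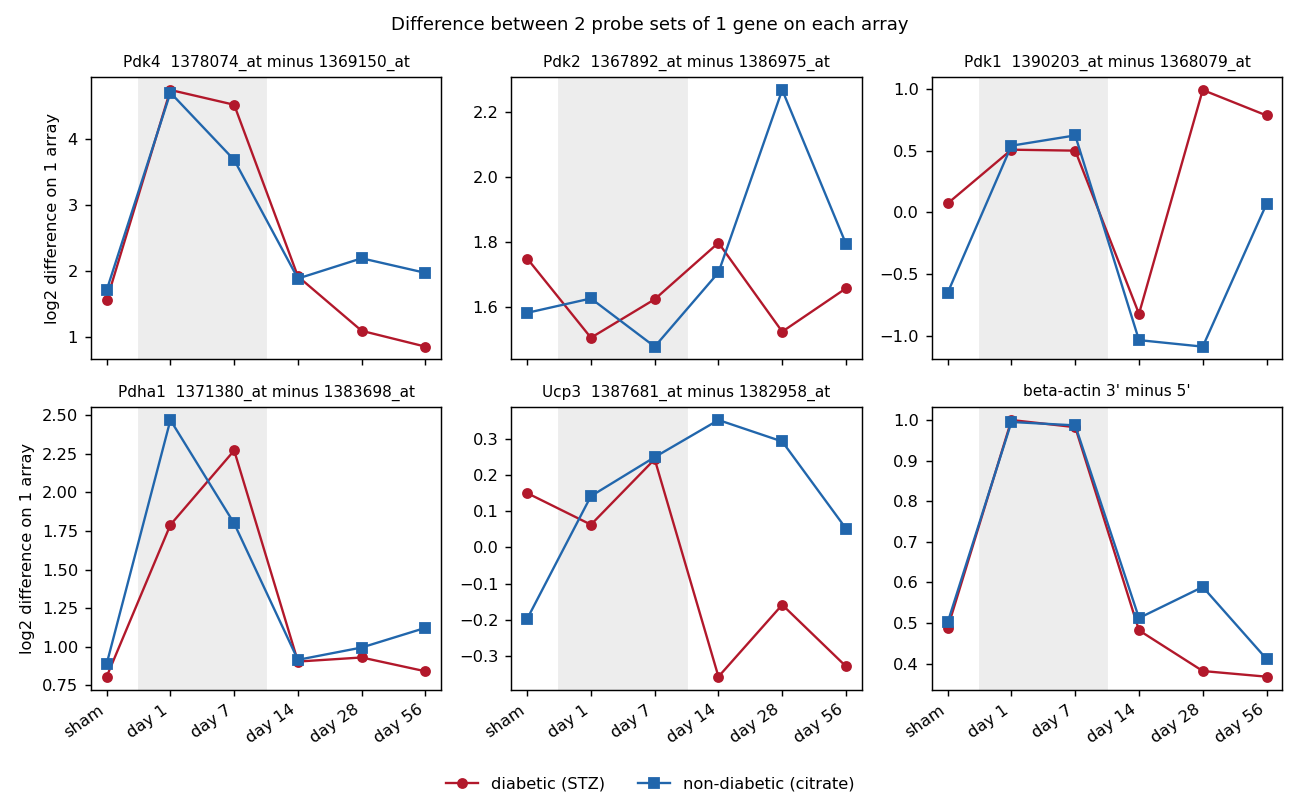
Difference between the log2(intensity + 16) values of 2 probe sets of the same gene on each array (vertical axes, each panel with its own range) by time point, for Pdk4, Pdk2, Pdk1, Pdha1, Ucp3 and the beta-actin control, diabetic as circles and non-diabetic as squares. Pdk4, Pdha1 and beta-actin stood higher on the 4 grey arrays of day 1 and day 7 than on the other 8.

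The diabetes difference of Pdk4 was small on day 1 and day 7 and large at the other time points on both probe sets. On 1378074_at it averaged 0.86 over day 1 and day 7 and 3.26 over sham, day 14, day 28 and day 56 (log2), and on 1369150_at 0.42 and 3.84. The model term for this contrast was -2.40 ± 0.30 on 1378074_at and -3.42 ± 0.40 on 1369150_at, each with an adjusted p of 0.0752. These were the 2 smallest p-values among the 18625 probe sets, of which limma called 0, or 0%, for this term. Of the 12 probe sets here 3 had an unadjusted p under 0.05 for it. It passed for both Pdk4 probe sets with a stricter filter at the 60th percentile (adjusted p of 0.0343 and 0.0294) and with robust moderation (0.0454 and 0.0349). The contrast of days was chosen with earlier results of these data known, and it sets the 4 arrays with a beta-actin difference of 0.98 to 1.00 and a low hexokinase 5′ reading against the other 8. The part of that in the Pdk4 contrast was not tested. For a trend of the diabetes difference over log2 of the day, limma called 0 of the 12 and 0% of all, with 3 of the 12 at an unadjusted p under 0.05, and the values for Pdk4 were 0.52 ± 0.13 and 0.76 ± 0.18 per doubling of the day (adjusted p = 1.00 for both). For a diabetes difference that differs between ligated and sham hearts, limma called 0 of the 12 and 0% of all, with 0 of the 12 at an unadjusted p under 0.05, and the Pdk4 values were -0.85 ± 0.97 and -0.74 ± 1.39. In the sham hearts, which had no ligation, the Pdk4 difference was 3.17 and 3.32.

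Pdk2, a widely expressed kinase of the family, did not pass the test for diabetes. Its brighter probe set 1367892_at had a lowest, median and highest intensity of 589.9, 1524 and 2077 in diabetic hearts and of 869, 1529 and 2454 in non-diabetic hearts. The difference was -0.13 ± 0.18 (log2, SE) with a 95% interval of -0.52 to 0.26 and an adjusted p of 0.84, and the diabetic array was the higher of 3 of 6 pairs. On 1386975_at it was -0.027 ± 0.24, with an interval of -0.55 to 0.49 and pair differences from -0.95 on day 14 to 1.26 on day 28. The ranges overlapped almost fully, and both intervals ended below those of Pdk4, which began at 1.66 and 1.57.

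Pdk2 was instead low on the first day after ligation in both conditions. On 1367892_at the day 1 arrays read 589.9 (diabetic) and 874 (non-diabetic), and the sham arrays read 1698 (diabetic) and 1611 (non-diabetic). On day 7 the diabetic array read 1071 and the non-diabetic array 869, which was again under the sham arrays. From day 14 on the diabetic arrays read 1350, 2077 and 1863 and the non-diabetic arrays 2454, 1446 and 2202, on either side of sham. Pdk2 fell by 1.19 ± 0.31 (log2, SE) on day 1 relative to sham, with an adjusted p of 0.0425. It was the only one of the 12 called on day 1, 4 had an unadjusted p under 0.05, and 7.47% of all probe sets were called. On 1386975_at the day 1 difference was -1.09 ± 0.41 with an adjusted p of 0.127. Without the variance trend the adjusted p of 1367892_at was 0.0517, so the call sits at the threshold. The day 1 arrays are among the 4 with the high beta-actin difference, and its part in the Pdk2 difference was not tested. The gap between the Pdk2 probe sets did not move with those arrays.

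Pdk1, the kinase that hypoxia is known to induce, had 2 probe sets that did not move together (Pearson r = -0.23 over the 12 arrays on the log2 scale, a description). On 1390203_at the diabetic arrays read 903 in sham hearts, 849 on day 1, 925 on day 7, 508 on day 14, 1540.5 on day 28 and 1261 on day 56. The non-diabetic arrays read 692 in sham hearts, 1338 on day 1, 1068 on day 7, 346 on day 14, 436 on day 28 and 797 on day 56. The diabetic array was the lower on days 1 and 7 and the higher at the other 4 time points. The mean difference was -0.42 over day 1 and day 7 and 0.84 over the others (log2). Over all pairs it was 0.42 ± 0.26 with a 95% interval of -0.15 to 0.98 and an adjusted p of 0.596. On 1368079_at the intensities spanned 593 to 909.6 in diabetic and 688 to 1095 in non-diabetic hearts, and the difference was -0.18 ± 0.15 with an interval of -0.50 to 0.14. Neither probe set passed the test, and they had opposite signs.

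Pdha1 encodes the catalytic alpha subunit of E1, whose serines the kinases phosphorylate, and Pdhb encodes the beta subunit. Neither passed the test for diabetes. Pdha1 on 1371380_at had a lowest, median and highest intensity of 1777, 3094 and 3128 in diabetic hearts and of 1561, 2372 and 3461 in non-diabetic hearts. The difference was 0.21 ± 0.14 (log2, SE, 95% interval -0.096 to 0.51, adjusted p = 0.629), and on 1383698_at it was 0.32 ± 0.18 (interval -0.087 to 0.72, adjusted p = 0.571). The largest pair difference of both probe sets was on day 28, at 0.84 and 0.91. Pdhb had values of 1277, 1785 and 1870 (lowest, median and highest) in diabetic hearts and of 1386, 1957 and 2069 in non-diabetic hearts. Its difference was -0.12 ± 0.13, with an interval of -0.42 to 0.17 and an adjusted p of 0.78, and its largest single difference was -0.69 on day 1. All E1 ranges overlapped between the conditions.

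**Figure D3:**
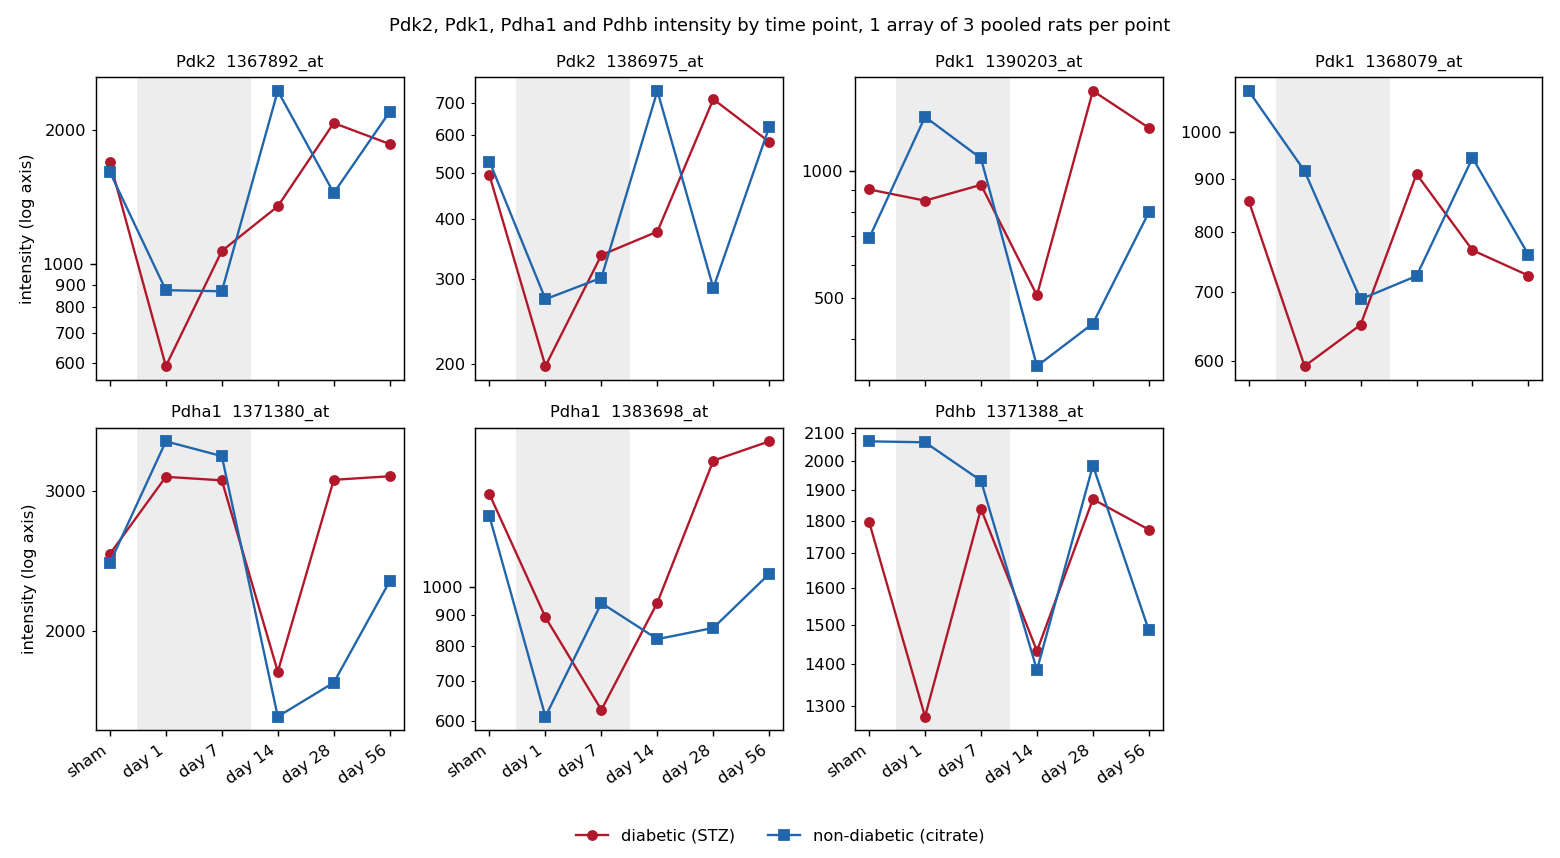
Intensity (log axes, each panel with its own range) of the Pdk2, Pdk1, Pdha1 and Pdhb probe sets by time point, in diabetic (circles) and non-diabetic (squares) hearts, 1 array of 3 pooled rats per point, with day 1 and day 7 in grey. The ranges of the conditions overlapped on all 7 probe sets, and both Pdk2 probe sets were lowest on day 1 in diabetic hearts.

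Ucp3 was higher in diabetic than in non-diabetic hearts at all 6 time points on both probe sets, without passing the test on either. On 1387681_at, the brighter on average, the diabetic arrays read 97.8 in sham hearts, 99.4 on day 1, 77.8 on day 7, 142 on day 14, 60.7 on day 28 and 144 on day 56. The non-diabetic arrays read 36.9 in sham hearts, 68.6 on day 1, 35.6 on day 7, 19.4 on day 14, 39.2 on day 28 and 30.3 on day 56. Only the diabetic day 28 array lay under the highest non-diabetic array, that of day 1. The difference was 1.14 ± 0.22 (log2, SE, 95% interval 0.65 to 1.63) with an adjusted p of 0.0692.

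On 1382958_at the diabetic arrays read 86.6 in sham hearts, 94.5 on day 1, 63.2 on day 7, 186 on day 14, 69.6 on day 28 and 185 on day 56. The non-diabetic arrays read 44.6 in sham hearts, 60.7 on day 1, 27.4 on day 7, 11.8 on day 14, 29.1 on day 28 and 28.7 on day 56. All 6 diabetic arrays lay above all 6 non-diabetic arrays, which held for 1 of the 12 probe sets here. Of all probe sets tested, 0.392% had the diabetic arrays either all above or all below the non-diabetic arrays. The difference was 1.35 ± 0.28 (log2, SE, 95% interval 0.74 to 1.96) with an adjusted p of 0.0866. The probe sets agreed closely over the arrays (Pearson r = 0.97, n = 12 arrays that share the preparation of their RNA, a description), and their gap did not move with the day 1 and day 7 arrays. At these low intensities the offset of 16 makes a log2 difference smaller than the ratio of the intensities.

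The largest Ucp3 differences were those of day 14, at 2.16 on 1387681_at and 2.87 on 1382958_at, and of day 56, at 1.79 and 2.17. They rest on dim non-diabetic readings. On day 14 these were 19.4 and 11.8, under that array's median intensity of 28.8, and on day 56 they were 30.3 and 28.7, near its median of 28.8. On day 1 they were 0.45 and 0.53, and on day 28 0.47 and 0.92. Unlike Pdk4, Ucp3 thus had a low value late in the course as well, on the diabetic day 28 array, where Pdk4 had its highest reading on 1378074_at. The term for a smaller diabetes difference on day 1 and day 7 was -0.73 ± 0.43 and -0.98 ± 0.53 for Ucp3, with an adjusted p of 0.999 for both. Over the 12 arrays the log2 values of Ucp3 on 1387681_at and of Pdk4 on 1378074_at had a Pearson r of 0.85, a description over arrays that share the diabetes contrast.

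Ucp2, the widely expressed member that is also abundant in immune cells, did not pass the test for diabetes. Its probe set 1368669_at read 1456 in diabetic and 1401 in non-diabetic sham hearts. On day 1 the diabetic array read 1107 and the non-diabetic array 1418, and on day 7 they read 1309 and 677. On day 14 the diabetic array read 1212 and the non-diabetic array 2008, on day 28 they read 1530 and 1606, and on day 56 they read 1806 and 1370.3. The diabetic array was the higher of 3 of 6 pairs, and the non-diabetic arrays held both the lowest and the highest value. The difference was 0.040 ± 0.19 (log2, SE, 95% interval -0.38 to 0.46) with an adjusted p of 0.961. The macrophage markers summed to 6378 to 8366 in hearts of days 1 and 7 and to 1032 to 7849 elsewhere, and their part in the Ucp2 values was not tested.

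**Figure D4:**
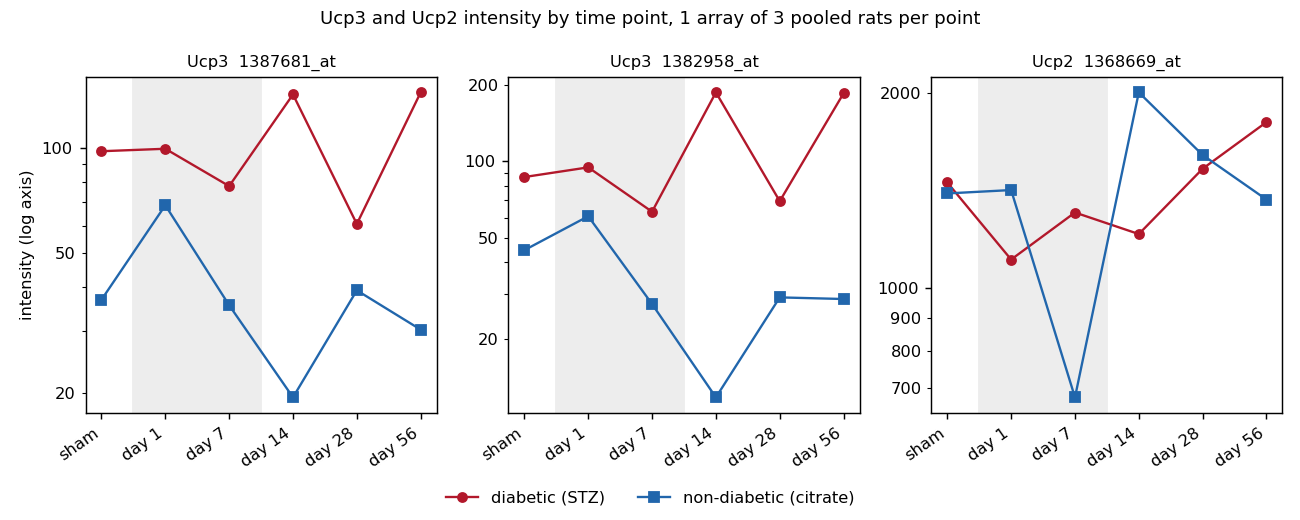
Intensity (log axes, each panel with its own range) of the 2 Ucp3 probe sets and the Ucp2 probe set by time point, in diabetic (circles) and non-diabetic (squares) hearts, 1 array of 3 pooled rats per point, with day 1 and day 7 in grey. The diabetic array was the higher at all 6 time points for Ucp3 and at 3 of 6 for Ucp2.

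Of the 12 probe sets, 1 was called for diabetes, the brighter of Pdk4, where 0.376% of all probe sets were called. A further 3, the other Pdk4 probe set and both of Ucp3, had an unadjusted p under 0.05. The median difference was 0.26 over the 12 and 0.013 over all probe sets tested, and 8 of the 12 were above 0. At single time points, which have no test, the probe sets past a 2-fold difference were all higher in diabetic hearts. In sham hearts there were 3 of 12, against 1.46% of all probe sets in either direction. On day 1 there were 0 against 3.16%, and on day 7 there was 1 against 1.01%. On day 14 there were 4 against 7.54%, on day 28 there were 4 against 11.9%, and on day 56 there were 4 against 3.39%. Those of days 14 and 56 were both probe sets of Pdk4 and both of Ucp3. Those of day 28 were both of Pdk4, 1386975_at of Pdk2 (1.26, log2) and 1390203_at of Pdk1 (1.78), and Ucp3 was not among them. Without the offset, the intensity ratios of Ucp3 on day 28 were 1.55 on 1387681_at and 2.39 on 1382958_at. On day 7 these ratios were 2.19 and 2.31.

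**Figure D5:**
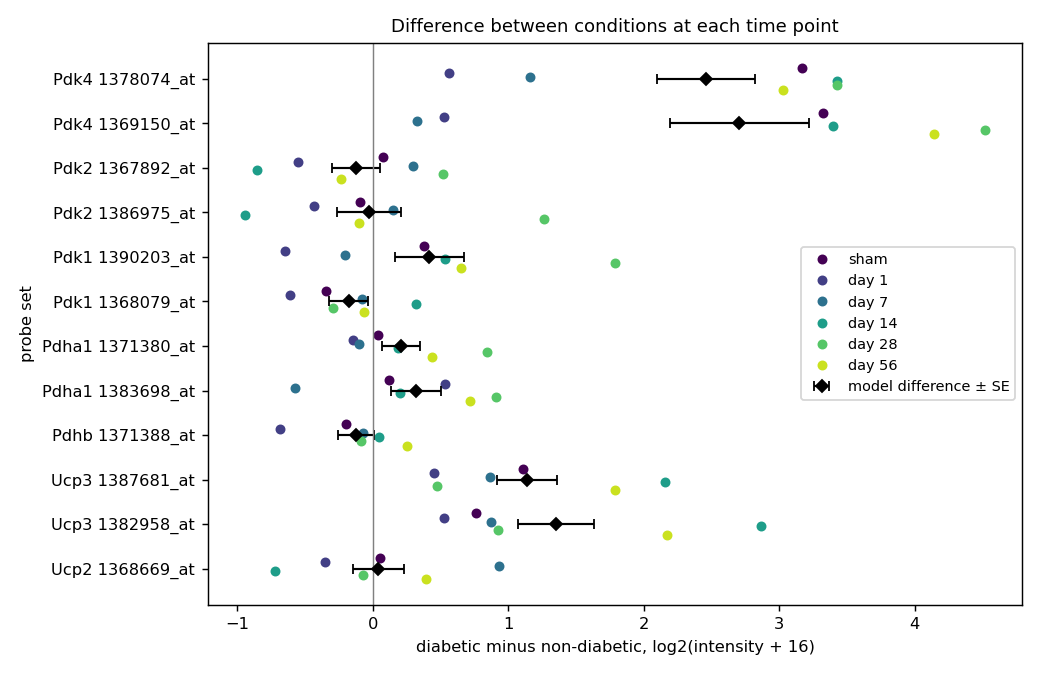
Diabetic minus non-diabetic difference in log2(intensity + 16) of each of the 12 probe sets (horizontal axis), with 1 coloured point per time point and the model difference ± SE over the 6 time points as a black diamond. The Pdk4 and Ucp3 points all lie right of 0, and the 2 leftmost Pdk4 points on each probe set are those of day 1 and day 7.

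Over the days after ligation, in both conditions together, few of the probe sets passed. For the mean of the 5 days against sham limma called 0 of the 12, with 0 at an unadjusted p under 0.05, against 0.107% of all probe sets. On day 7 it called 0 of the 12, with 3 at an unadjusted p under 0.05, against 7.65% of all. On day 14 it called 0 of the 12, with 1 at an unadjusted p under 0.05, against 0% of all, and on days 28 and 56 it called 0 of the 12, with 0 at an unadjusted p under 0.05, against 0% of all. The median of the 12 was -0.22 on day 1 and -0.48 on day 7, while that of all probe sets was 0.070 and 0.15. With array medians set equal the median of all probe sets on day 7 was 0.042, and with quantile normalization it was -0.028.

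For the slope over log2 of the day 4 of the 12 probe sets were called, all upward, where 28.5% of all probe sets were called. They were both of Pdk2, at 0.27 ± 0.049 (adjusted p = 0.0032) and 0.23 ± 0.065 (adjusted p = 0.0254) per doubling of the day, 1369150_at of Pdk4 at 0.54 ± 0.14 (adjusted p = 0.0176), with 0.92 on the diabetic and 0.16 on the non-diabetic arrays alone, and 1383698_at of Pdha1 at 0.15 ± 0.051 (adjusted p = 0.0453). The other probe set of Pdk4, 1378074_at, had -0.099 ± 0.10 (adjusted p = 0.479) and that of Pdha1, 1371380_at, had -0.086 ± 0.038 (adjusted p = 0.112), with the opposite sign. Days 1 and 7, the low end of this slope, are those with the high beta-actin difference, whose part was not tested. Called slopes of all probe sets were 1879 upward and 3430 downward, and with quantile normalization 2537 and 2464. Called day 1 differences were 783 higher and 609 lower, and with quantile normalization 588 and 687. Called day 7 differences were 870 higher and 554 lower, with quantile normalization 435 and 630, and with equal medians 692 and 797.

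Of 10 measured genes of the complex and its control beyond those above, limma called 0 for diabetes, where 0.376% of all probe sets were called. An unadjusted p under 0.05 was found for 3 of them. Above 0 were 3 of the 10, and their median was -0.079. The lowest p was that of Pdp2, a phosphatase that turns the complex on, at -0.71 ± 0.14 (log2, SE, adjusted p = 0.0771), lower in the diabetic array of all 6 pairs. The phosphatase Pdp1 had 0.33 ± 0.16 (adjusted p = 0.497). Mpc1, a subunit of the mitochondrial pyruvate carrier, had -0.32 ± 0.095 (adjusted p = 0.232), and Pdhx, which holds the E3 component in the complex, had -0.33 ± 0.13 (adjusted p = 0.411), each lower in 6 of 6 pairs without passing. Against sham, limma called 0 of the 10 on each of the 5 days, with 0 to 3 at an unadjusted p under 0.05. Of all probe sets, 7.47% were called on day 1, 7.65% on day 7 and 0% on days 14, 28 and 56.

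Of 14 measured genes of glucose uptake and the other fates of pyruvate, limma called 0 higher and 2 lower in diabetic hearts, where 0.376% of all probe sets were called. Slc2a4, the insulin-dependent glucose transporter, fell by 1.25 ± 0.23 (adjusted p = 0.0465), and Pc, pyruvate carboxylase, fell by 0.77 ± 0.14 (adjusted p = 0.0443), both in 6 of 6 pairs. Hk2, a hexokinase, had -0.53 ± 0.17 (adjusted p = 0.307) and Slc16a1, a lactate and pyruvate transporter, 0.55 ± 0.18 (adjusted p = 0.308). Above 0 were 6 of the 14, and the median of the list was -0.092. On Slc2a4 the difference was -1.29 over day 1 and day 7 and -1.22 over the other time points, nearly the same on both sets of arrays. On day 1 relative to sham, limma called 1 of the 14 higher and 1 lower. Slc16a3, a lactate exporter, rose by 1.87 ± 0.27 (adjusted p = 0.0028) and Slc2a4 fell by 1.77 ± 0.39 (adjusted p = 0.0243). That is 2 of 14, where 7.47% of all probe sets were called on day 1, and the part of the high beta-actin difference of these arrays was not tested.

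PPAR-alpha is a fatty acid receptor known to act on Pdk4 and Ucp3. Of 24 measured target genes, limma called 4 higher and 0 lower in diabetic hearts, where 0.376% of all probe sets were called. This list, like the other gene lists, was chosen with earlier results of these data known, so its counts are not independent support. Above 0 were 22 of the 24, most of them without passing, and the median was 0.42, against 0.013 over all probe sets. Acot1, a cytosolic thioesterase that frees fatty acids from CoA, rose by 2.45 ± 0.15 (adjusted p = 4.9e-05), and Decr1, a mitochondrial reductase for unsaturated fatty acids, by 1.43 ± 0.19 (adjusted p = 0.0089). Acot2, the mitochondrial thioesterase, rose by 1.25 ± 0.19 (adjusted p = 0.0227) and Angptl4, an inhibitor of lipoprotein lipase, by 2.73 ± 0.49 (adjusted p = 0.0423). For the interaction of diabetes with the day 1 and day 7 arrays, limma called 0 of the 24. In that term 1 of the 24 was above 0, and the median was -0.58, against -0.11 over all probe sets. The part of the beta-actin difference of these arrays in it was not tested. Of 13 measured regulators of these genes, limma called 0 for diabetes, 1 had an unadjusted p under 0.05 and the median was 0.050. The lowest p among them was that of Cebpb, a transcription factor, at 0.43 ± 0.17 (adjusted p = 0.391), and Ppargc1a, a coactivator of PPAR-alpha, had 0.50 ± 0.29 (adjusted p = 0.571). Of 4 measured carriers related to the uncoupling proteins limma called 0 for diabetes, with 0 at an unadjusted p under 0.05 and values of 0.097 for Slc25a4 to 0.29 for Slc25a30, and Ucp1 and Slc25a27 did not pass the filter on dim probe sets.

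Among 10616 other genes, the log2 values over the 12 arrays were most like those of Pdk4 (1378074_at) for Acot2 (Pearson r = 0.96), Acot1 (0.93), Nudt7 (0.92), Bfar (0.91) and Decr1 (0.90). Nudt7 is a peroxisomal enzyme that cleaves CoA. All 5 had a smaller mean diabetes difference over day 1 and day 7 than over the other time points, with 0.60 and 1.57 for Acot2, 0.75 and 1.68 for Nudt7 and 0.10 and 1.11 for Bfar. Those of Acot1 were 2.00 and 2.68, and those of Decr1 were 1.04 and 1.62. These time points again split the arrays by the beta-actin difference (0.98 to 1.00 against 0.37 to 0.59), whose part was not tested. For Ucp3 (1387681_at) the most alike were Angptl4 (0.89), Prkag2, a subunit of the AMP-activated kinase (0.88), Cadps (0.87), Acot1 (0.87) and Colq (0.86). For Ucp2 they were Fbrs (0.86), Mid1ip1 (0.85), Cacng7 (0.84), Zgpat (0.84) and Faap100 (0.84). Acot1 was named for both Pdk4 and Ucp3, and no gene was shared with Ucp2. These are descriptions over arrays that share the contrast of diabetes and the days.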

How the data were processed

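Per the labels, RNA of 3 rats was pooled for each of the 12 Affymetrix rat arrays. The authors deposited 1 linear intensity per probe set and array, made with Affymetrix Expression Console and PLIER per the submitters' processing notes; versions and scaling were not stated. Of 31099 rows 57 controls were removed. Of the 31042 left, the platform annotation gave 1 symbol to 20826, several to 436 and no entry to 9780. Values were log2(intensity + 16), so that differences of dim genes are understated. Probe sets with a mean above the 40th percentile (5.20) were tested.

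limma 3.58.1 in R 4.3.3 was fitted to all 12 arrays with time point as a factor and diabetes (5 residual degrees of freedom), with trended moderated variances and Benjamini-Hochberg adjustment over 18625 probe sets, at a threshold of 0.05. Interactions of diabetes with ligation, log2 day and the day 1 and day 7 arrays left 4, 3 and 4 degrees. Shares of all probe sets called are at the adjusted threshold. The share of all probe sets at an unadjusted p under 0.05 was not computed. Pipelines were tested on simulated data. The representative probe set of a gene has the highest mean over 12 arrays. Named genes are the members, the 5 genes of highest Pearson r, and the list members of lowest p or past the threshold. Members and lists were chosen with earlier results of these data known. Alternatives changed the offset, filter, scaling, variance moderation, time point term and arrays used.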

Additional observations from a re-analysis of the deposited data

How the results depend on the processing

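The number of the 12 probe sets called for diabetes was 1 as reported, where 70 of all 18625 were called. It was 2 without the filter (86 of 31042) and 3 with a filter at the 60th percentile (62 of 12417). With array medians set equal it was 3 (83 of 18625), and with time point as a random block 3 (116 of 18625). On the sham, day 14, day 28 and day 56 arrays alone it was 2 (35 of 18625). The day 1 and day 7 arrays alone gave 0 (2 of 18625). Leaving out a pair of arrays gave 0 to 2, with 6 to 92 of 18625 called. The difference of Pdk4 on 1378074_at was 2.27 to 2.84 without a pair and 0.86 on the day 1 and day 7 arrays alone (adjusted p = 0.999), and it passed under 13 of 17 alternatives. That of 1369150_at passed under 6 of 17. Ucp3 on 1387681_at passed under 4 of 17, with 1.14 at the 60th percentile filter (adjusted p = 0.0457), 1.13 with equal medians (0.0442) and 1.14 with the random block (0.0132), and it was 0.94 to 1.28 without a pair. Ucp3 on 1382958_at passed under 1. Pdk4 and Ucp3 were above 0 on all 4 probe sets under all 17. As all 6 pair differences were above 0 on each, leaving out arrays could not turn the sign. The filter, variance and block alternatives did not change the difference itself. The day 1 count was 0 without the variance trend, where 1194 of 18625 were called. The count for the day 1 and day 7 interaction was 2 with the 60th percentile filter and with robust moderation. No other probe set was called for it in either setting. Setting medians equal moved the median of all probe sets in that interaction to -0.0022, against -0.11 as reported.

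Signs turned only for values that had not passed. Without a pair the diabetes difference ran over -0.26 to 0.019 (Pdk2 on 1367892_at), -0.29 to 0.16 (Pdk2 on 1386975_at) and -0.14 to 0.19 (Ucp2). On the 8 arrays outside days 1 and 7 it was 0.030 (Pdk2 on 1386975_at), 0.0034 (Pdhb) and -0.085 (Ucp2), and on the day 1 and day 7 arrays -0.42 (Pdk1 on 1390203_at), -0.12 and -0.021 (Pdha1). With an offset of 64, day 14 against sham was 0.037 and 0.11 for Ucp3, the mean of the days 0.0094 and the slope 0.0021 (Ucp3 on 1382958_at), the day 1 and day 7 interaction 0.0033 (Pdk2 on 1367892_at) and the difference between the Pdk4 probe sets -0.090. The mean of the days for Ucp3 on 1387681_at was -0.015 with an offset of 1, -0.068 with quantile normalization and -0.026 with equal medians. Quantile normalization gave 0.0645 and equal medians 0.0992 for that Pdk2 interaction. Quantile normalization also gave 0.11 for Pdha1 on day 56, 0.0035 for the Ucp3 slope, and -0.0023 (Pdhb) and -0.0056 (Ucp3) for the interaction with ligation. The cause of these turns was not tested. Having 1 pooled array per group limits all single time points.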

Other observations

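Over log2 of the day after ligation 28.5% of all probe sets passed in both conditions together. The lists around the switch hold 1 probe set per gene. In them passed 2 of 10 of the pyruvate dehydrogenase complex, 3 of 14 of the other fates of pyruvate and 2 of 13 regulators. Of the PPAR-alpha targets 3 of 24 passed, and of the related carriers 1 of 4. Among the 12 probe sets of the genes described above 4 passed. With so few genes in each list, these counts are not read as a difference from the share of all probe sets. Among the lactate and glucose transporters, Slc16a3 had a slope of -0.29 ± 0.043 (log2 per doubling of the day, SE, adjusted p = 0.0013) and Slc2a1, the insulin-independent glucose transporter, of -0.19 ± 0.055 (adjusted p = 0.0269), while Slc2a4 had 0.35 ± 0.062 (adjusted p = 0.0028). In the pyruvate dehydrogenase list the kinase Pdk3 had -0.16 ± 0.042 (adjusted p = 0.0174) and Lipt2, an enzyme of lipoic acid attachment, -0.17 ± 0.038 (adjusted p = 0.0103). Among the regulators, Foxo1, a forkhead factor that insulin keeps out of the nucleus, had 0.14 ± 0.036 (adjusted p = 0.0150) and the retinoid receptor Rxrg 0.18 ± 0.061 (adjusted p = 0.0496). Slc25a5, an ADP/ATP carrier, had -0.10 ± 0.029 (adjusted p = 0.0233). Of the PPAR-alpha targets, Plin2, a lipid droplet protein, had -0.33 ± 0.045 (adjusted p = 0.00081), Angptl4 -0.46 ± 0.13 (adjusted p = 0.0270) and Acot1 -0.15 ± 0.040 (adjusted p = 0.0186). The day 1 and day 7 arrays at the low end of this slope are those with a beta-actin 3′ to 5′ difference of 0.98 to 1.00, and its part in these slopes was not tested.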
